A study of Mus musculus with 6 samples.

Results

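Notch signalling was followed through the mRNAs of 10 genes in label-retaining chondrocytes (LRCs) and chondrocytes with less label (non-LRCs) of the mouse growth plate. The genes were chosen by name from the deposited count table of 23159 genes: the 4 receptors *Notch1*, *Notch2*, *Notch3* and *Notch4*, the 3 ligands *Jag1*, *Jag2* and *Dll1*, and the 3 target genes *Hes1*, *Hey1* and *Heyl*. All 10 were present in the table, and 9 passed edgeR's filter on low counts. *Notch4* did not pass it and was fitted only without that filter.

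In Notch signalling, a ligand of the Jagged or Delta family on one cell binds a receptor on its neighbour. Successive cleavages, the last by gamma-secretase, free the intracellular domain of the receptor, which enters the nucleus and joins RBPJ and a Mastermind protein to switch on genes of the Hes and Hey families, which encode transcriptional repressors. In cartilage the pathway is known for its part in the progression of chondrocytes towards hypertrophy and in the upkeep of skeletal progenitors.

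The cells came from Col2-Q mice, homozygous for all 4 alleles (*Col2a1-tTA*, at *Peli2* according to the labels, *TRE-H2B-GFP* at *Col1a1*, *Col2a1-creER* and *R26R-tdTomato*). Both groups therefore carried the same alleles and had the same drugs. Doxycycline, given from P21 to P49, shut off the histone label that the *Col2a1* promoter had driven, and tamoxifen at P46 and P47 turned on tdTomato in cells expressing *Col2a1-creER*. At P49, CD45-negative tdTomato+ cells of the distal femoral and proximal tibial growth plates were sorted into LRCs, with high H2B-GFP, and non-LRCs, with mid-low H2B-GFP. About 10000 LRCs and 50000 non-LRCs, pooled from littermates, made up a library, and each of 3 independent experiments gave 1 library of each kind, hence 3 pairs.

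Total counts lay between 18943789 and 129559872 per library. The LRC library of experiment 2 stood apart as the smallest: 1 count was worth 0.0478 CPM (counts scaled to a fixed library total after TMM normalization) in it, 1731 of the 13728 genes tested were at 0, against 4 to 365 in the other libraries, and a gene with no read could still have been at up to 0.143 CPM, the worth of 3 counts. This bound covers counting error alone, because amplified reads that carry no molecular identifier need not be separate molecules. *Col2a1*, the main collagen of cartilage, took 7.003% to 17.4% of the counts of each library. The cells had been sorted by labels that depend on *Col2a1* transgenes, so its level is no independent check of the cell type. Of 3 resting chondrocyte markers, *Pthlh* and *Gas1* passed the test, but the authors drew *Gas1* from these same libraries, so it is no independent check. Summed levels of the 3 were 344 to 372 CPM in LRCs and 103 to 165 CPM in non-LRCs. Those of 5 prehypertrophic and hypertrophic markers, of which 3 passed, were 92.0 to 365 CPM and 531 to 1487 CPM. Those of 5 superficial articular markers, of which 3 passed, were 459 to 2057 CPM and 66.0 to 96.4 CPM. Those of 8 osteoblast markers, of which 1 passed (*Col1a1*, higher in LRCs), were 844 to 1976 CPM and 860 to 2143 CPM. Genes that passed, the differentially expressed genes (DEGs), are those of the paired edgeR fit (differing by 2-fold or more with p below 0.05 after Benjamini-Hochberg adjustment). DESeq2 called 3, 5 and 3 of the first 3 lists. On the osteoblast list it called *Col1a1*, and also *Bglap*, *Bglap2* and *Sp7*, which were lower in LRCs. By in situ hybridization the authors found *Prg4*, of the superficial articular list, in the growth plate resting zone too, fainter than at the articular surface. The osteoblast genes and *Prg4* were named after their values were seen. The part of the marker differences in the values of the Notch genes was not tested.

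In the paired edgeR fit, none of the 9 Notch genes tested was a DEG, against 166 of 13728 genes, or 1.21%. The count over all genes was 1 without the experiment block, 35 without experiment 1 and 555 without experiment 2, and no Notch gene was called in these fits either. *Hey1* came closest: its mean level was 2.51-fold higher in LRCs in the fit and its 3 LRC libraries lay above its 3 non-LRC libraries, with an adjusted p of 0.178 from edgeR's quasi-likelihood test. *Notch1* was the other gene whose groups did not overlap, and it missed the threshold by more. *Notch2*, *Jag1*, *Hes1* and *Heyl* had at least 10 counts in every library and fitted differences of less than 2-fold, while *Notch3*, *Notch4*, *Jag2* and *Dll1* had libraries at 0 counts. Since these are bulk samples, fewer cells expressing a gene and less RNA of it per cell cannot be told apart in any of the values.

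**Figure D1:**
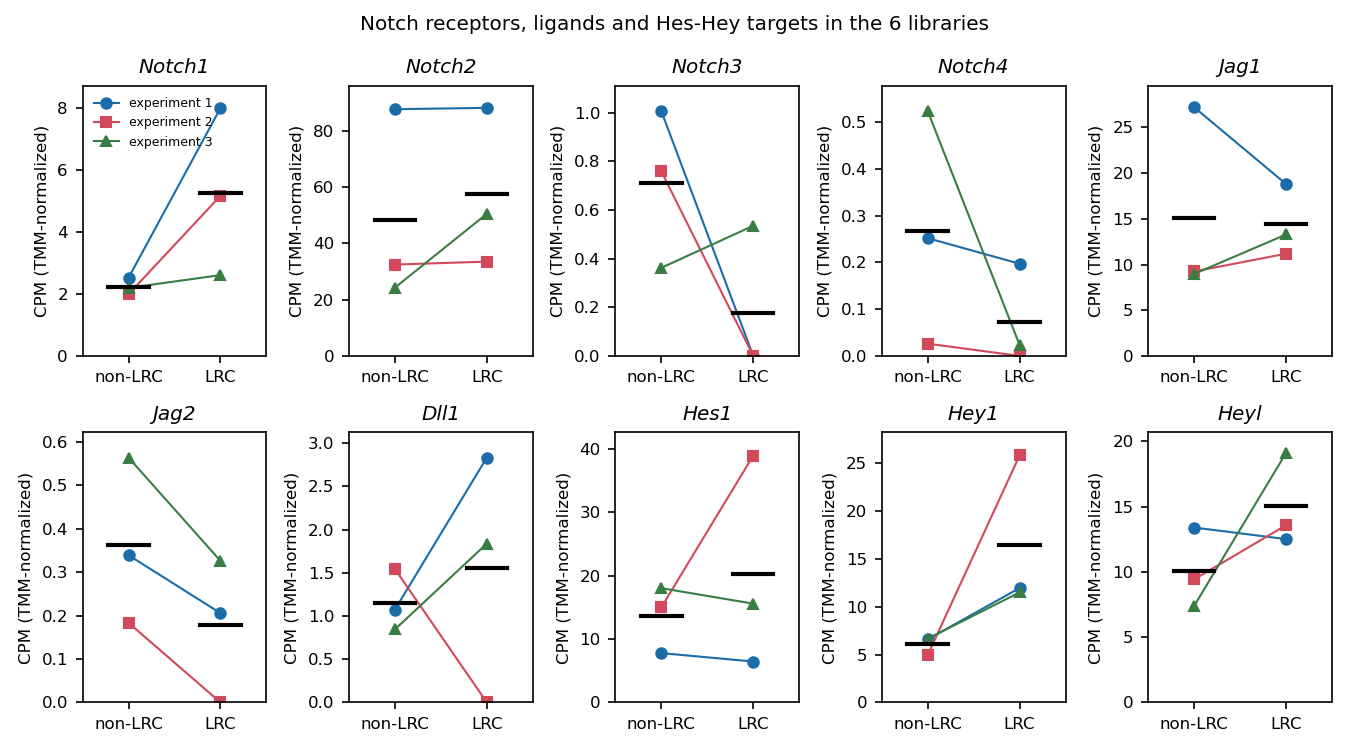
Level of each of the 10 genes in CPM (TMM-normalized, linear axis from 0) in the 3 non-LRC and 3 LRC libraries. Lines join the libraries of 1 experiment and black bars are group means. For *Hey1* and *Notch1* the 3 LRC libraries lie above the 3 non-LRC libraries, and for *Notch3*, *Notch4*, *Jag2* and *Dll1* the LRC library of experiment 2 is at 0.

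Levels of different genes were compared per kb of exon (the union of the exons of the basic coding transcripts in GENCODE vM21, on GRCm38). Over the 6 libraries *Hes1* had the highest mean level, at 11.6 CPM per kb, followed by *Notch2* at 5.02, *Hey1* at 4.64, *Heyl* at 2.77 and *Jag1* at 2.63 CPM per kb. The order was not the same in every library: *Notch2* was the highest in both libraries of experiment 1 and *Hes1* in the other 4, and the LRC library of experiment 2, at 26.5 CPM per kb, raised the mean of *Hes1*. In the LRC mean *Hey1* (6.78 ± 3.36 CPM per kb, s.d., n = 3) was above *Notch2* (5.47 ± 2.66), within their spread. The ranges of neighbours in this order overlapped, from 4.40 to 26.5 CPM per kb for *Hes1* and 2.31 to 8.40 CPM per kb for *Notch2* down to 1.60 to 4.85 CPM per kb for *Jag1*. A gap without overlap separated these 5 genes from *Notch1*, which had a mean of 0.395 CPM per kb and a highest library at 0.842 CPM per kb. *Dll1* followed at a mean of 0.379 CPM per kb, and its range of 0 to 0.791 CPM per kb overlapped that of *Notch1*. *Notch3*, *Jag2* and *Notch4* were lowest, with means of 0.0554, 0.0528 and 0.0258 CPM per kb and each with at least 1 library at 0.

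Within each library, 1 receptor and 1 ligand made up most of their class. *Notch2* took 90.6%, 85.4% and 93.3% of the summed receptor level per kb in LRCs (experiments 1, 2 and 3 in turn), and 95.1%, 90.9% and 86.7% in the non-LRC libraries. The groups overlapped and the order within an experiment was not the same in all 3. *Jag1* took 80.1%, 100% and 80.4% of the summed ligand level in LRCs and 93.0%, 77.9% and 82.2% in non-LRCs, where the 100% came from the smallest library, with *Jag2* and *Dll1* at 0. Among the 3 targets *Hes1* was the highest per kb in 5 of the 6 libraries, and *Hey1* in the LRC library of experiment 1.

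**Figure D2:**
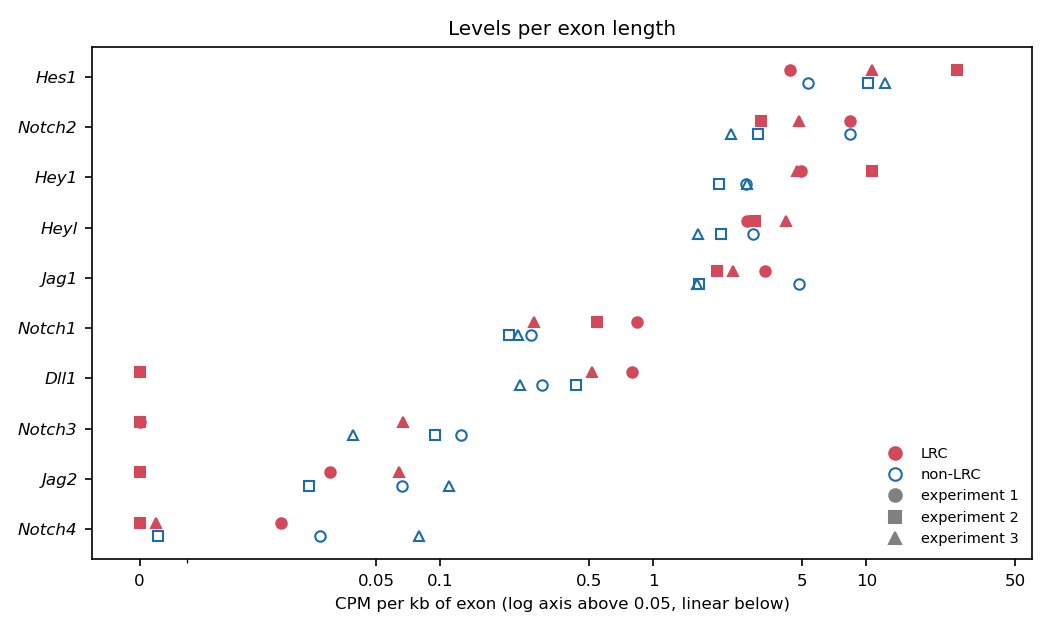
Level of each gene in CPM per kb of exon (log axis above 0.05, linear below) in the LRC libraries (filled) and non-LRC libraries (open), with the marker shape giving the experiment. Genes are ordered by their mean over the 6 libraries, and *Jag1* and the 4 genes above it are separated from *Notch1* and the genes below it.

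Of the receptors, *Notch2* (chr3:98013527-98150361, plus strand), the most abundant one, is known from skeletal disease, since truncating mutations of its human counterpart cause Hajdu-Cheney syndrome. Its level was 88.2, 33.5 and 50.5 CPM in LRCs, giving experiments 1, 2 and 3 in turn here and throughout, and 87.7, 32.5 and 24.2 CPM in the non-LRC libraries, with means of 57.4 ± 27.97 and 48.1 ± 34.5 CPM (s.d., n = 3). The libraries of experiments 1 and 2 were nearly level within their pair, and only in experiment 3 was the LRC library clearly the higher. The log2 differences were 0.008, 0.045 and 1.06, and the fitted log2 fold change was 0.37 (95% interval −0.25 to 0.99) with an adjusted p of 0.498 by edgeR. Without experiment 3 it was 0.047, and the pair of experiment 3 carried most of the fitted value.

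*Notch1* (chr2:26457903-26516663, minus strand), the receptor named in most work on cell fate and leukaemia, was at 7.99, 5.16 and 2.61 CPM in LRCs and at 2.52, 1.99 and 2.19 CPM in non-LRCs. All 3 LRC libraries lay above the 3 non-LRC libraries, although the LRC library of experiment 3 did so narrowly. Means were 5.25 ± 2.69 and 2.23 ± 0.266 CPM (s.d., n = 3), a fitted log2 fold change of 1.10 with a standard error of 0.57 and a 95% interval of −0.28 to 2.49. The interval held 0, and the adjusted p was 0.365 in the edgeR fit. In experiments 1, 2 and 3 the log2 differences were 1.65, 1.36 and 0.25, and over the alternatives the fitted value ran from 0.81 to 1.54, with adjusted p from 0.0812 to 0.829.

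*Notch3* (chr17:32120820-32166852, minus strand), a receptor of vascular smooth muscle cells and pericytes, was counted 0, 0 and 23 times in LRCs against 104, 29 and 18 times in non-LRCs, or 0, 0 and 0.535 CPM against 1.01, 0.759 and 0.362 CPM. It was found in every non-LRC library and in 1 of the 3 LRC libraries, and in that experiment the LRC library was the higher one, so the groups overlapped. A count of 0 allowed up to 0.0257 CPM in the LRC library of experiment 1 and 0.143 CPM in that of experiment 2, both below the non-LRC library of the same experiment. The fitted log2 fold change of −4.71 rested on libraries at 0 and was −3.11 with a prior count of 2, with an adjusted p of 0.460 by edgeR. Without experiments 1, 2 and 3 in turn it was −2.12, −2.90 and −9.06, and with DESeq2 it was −5.75 with an adjusted p of 0.0753.

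Of 10 pericyte and smooth muscle markers, 8 were tested. None was a DEG by edgeR, and 1, the smooth muscle actin *Acta2*, was a DEG by DESeq2 (adjusted p = 0.0368). *Acta2* was counted 1, 0 and 16 times in LRCs against 198, 23 and 36 times in non-LRCs. All 3 experiments had it lower in LRCs, while *Notch3* was the higher in LRCs in experiment 3. In experiments 1, 2 and 3, 5, 5 and 3 of the 8 markers were lower in LRCs. *Myh11*, smooth muscle myosin, alone had the signs of *Notch3* in all 3 (log2 differences of −1.17, −3.19 and 0.73), and *Des* was lower in each (−2.27, −5.83 and −0.80). *Pdgfrb*, in contrast, was higher in experiments 1 and 3 (1.18 and 1.59) and *Cspg4* was higher in each (0.12, 0.0198 and 0.30).

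The summed level of the 10 markers was 558 to 1486 CPM in LRCs and 555 to 1384 CPM in non-LRCs, most of it from *Cspg4*, and without that gene it was 57.7 to 118.0 CPM and 38.4 to 123.2 CPM. *Rgs5* and *Kcnj8*, which mark pericytes, had at most 8 and 11 counts in any library. The part of such cells in the *Notch3* values was not tested. The markers named here were set beside *Notch3* after their values were seen.

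*Notch4* (chr17:34564268-34588503, plus strand), an endothelial receptor, was counted 23, 0 and 1 times in LRCs against 26, 1 and 26 times in non-LRCs, at most 0.523 CPM in any library. The groups overlapped. In a fit with no filter on low counts its log2 fold change was −2.34 with a standard error of 2.21 and an adjusted p of 0.729 by edgeR. Endothelial markers summed to 3.37 to 8.03 CPM in LRCs and 2.80 to 2.98 CPM in non-LRCs, and of the 11 on the list *Cdh5*, *Kdr*, *Emcn* and *Sox17* were at 0 in every library. *Erg*, which is also on the superficial articular list, gave 2.86, 4.40 and 2.56 CPM of the sum in LRCs. *Cldn5* gave 0, 3.06 and 0.0233 CPM of it, the 3.06 CPM from 64 counts in the smallest library. *Erg* and *Cldn5* were named after their values were seen. The part of endothelial cells in the *Notch4* counts was not tested.

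Of the ligands, *Jag1* (chr2:137081456-137116644, minus strand), whose human counterpart is mutated in Alagille syndrome, was at 18.8, 11.2 and 13.3 CPM in LRCs and 27.2, 9.24 and 8.97 CPM in non-LRCs. The groups overlapped throughout: the LRC library was the lower one in experiment 1 and the higher one in experiments 2 and 3. The log2 differences of −0.53, 0.27 and 0.56 gave a fitted log2 fold change of 0.10 (95% interval −0.66 to 0.86) and an adjusted p of 0.890 by edgeR. Its direction was not settled, since without experiment 3 the value was −0.11.

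*Dll1* (chr17:15367354-15376872, minus strand), a Delta ligand that acts in somite formation, was counted 331, 0 and 79 times in LRCs against 111, 59 and 42 times in non-LRCs, or 2.83, 0 and 1.84 CPM against 1.07, 1.54 and 0.845 CPM. In experiments 1 and 3 the LRC library was above all 3 non-LRC libraries, and in experiment 2, with the smallest library, it was at 0, below the 0.143 CPM that its depth could show. The log2 differences were 1.37, −5.61 and 1.09, and the fitted log2 fold change was −0.19 with a standard error of 1.86 and an adjusted p of 0.967 by edgeR. Without experiment 2 the fitted value turned to 1.26, with an adjusted p of 0.201 by edgeR.

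*Jag2* (chr12:112907819-112929776, minus strand), the second Jagged ligand, was counted 24, 0 and 14 times in LRCs against 35, 7 and 28 times in non-LRCs, or 0.206, 0 and 0.326 CPM against 0.339, 0.183 and 0.563 CPM. It was the lower in LRCs in each experiment, but the groups overlapped and the counts were few. The fitted log2 fold change was −1.45 with a standard error of 1.56 and an adjusted p of 0.673 by edgeR, and it ran from −2.17 to −0.75 over the alternatives.

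Of the targets, *Hey1* (chr3:8663359-8667256, minus strand) encodes a basic helix-loop-helix repressor that Notch induces in many tissues. Its level was 12.0, 25.8 and 11.5 CPM in LRCs and 6.58, 4.95 and 6.66 CPM in non-LRCs. Each LRC library lay above every non-LRC library, the non-LRC libraries were close together, and the LRC library of experiment 2 was more than the others above its partner. Means were 16.4 ± 8.14 and 6.06 ± 0.967 CPM (s.d., n = 3).

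The log2 differences of *Hey1* in experiments 1, 2 and 3 were 0.86, 2.38 and 0.78. The fitted log2 fold change was 1.33 with a standard error of 0.42 and a 95% interval of 0.30 to 2.35, and its unadjusted p was 0.0192 in the edgeR fit, a threshold (p below 0.05) that 18.4% of all genes tested passed. With DESeq2 the fold change was nearly the same (1.34) and the adjusted p was 0.0282, which made *Hey1* a DEG, the only one of the 10 genes in a fit that called 5.81% of genes. With limma-voom the adjusted p was 0.0492 and *Hey1* was again the only Notch gene called, where 4.52% of genes were. Without experiment 2 the fitted value was 0.82, below 2-fold, with an adjusted p of 0.0944 by edgeR.

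*Heyl* (chr4:123233556-123249875, plus strand), a close relative of *Hey1*, was at 12.5, 13.6 and 19.1 CPM in LRCs and 13.4, 9.43 and 7.38 CPM in non-LRCs. The groups overlapped, with experiment 1 level or slightly lower in LRCs and experiment 3 the most different. The fitted log2 fold change was 0.60 (95% interval −0.29 to 1.49), with an adjusted p of 0.441 by edgeR, from log2 differences of −0.099, 0.52 and 1.37. It was 0.95 without experiment 1 and 0.23 without experiment 3.

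*Hes1* (chr16:30064384-30067796, plus strand) is the best known Notch target and also answers to other signals. It was at 6.46, 39.0 and 15.6 CPM in LRCs and 7.78, 15.003 and 18.0 CPM in non-LRCs. The highest and the lowest of the 6 libraries were both LRC libraries, so the groups overlapped entirely. The log2 differences were −0.27, 1.37 and −0.21, the fitted log2 fold change was 0.29 (95% interval −0.68 to 1.25), and the adjusted p was 0.743 by edgeR. Without experiment 2 it was −0.24.

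*Hes1* and *Hey1* both had their highest level in the LRC library of experiment 2, and their largest log2 difference in that experiment. The immediate early genes *Fos*, *Fosb*, *Junb*, *Egr1*, *Ier2*, *Atf3* and *Zfp36* also had their highest log2 difference there, while *Jun*, *Dusp1* and *Nr4a1* did not. For *Fos* it was 2.04 against 0.65 and 0.46 in experiments 1 and 3, and for *Egr1* 0.79 against 0.66 and 0.67. Of the 10 immediate early genes listed, 1 was a DEG by edgeR (*Nr4a1*, higher in LRCs) and 2 by DESeq2 (*Nr4a1* and *Fos*, the latter at a log2 fold change of 1.053 with an adjusted p of 0.00945), and their summed level was 3044 to 4382 CPM in LRCs and 2153 to 3681 CPM in non-LRCs. *Nr4a1* had its largest log2 difference in experiment 3, at 1.35 against 1.24 in experiment 2. Fitted edgeR log2 fold changes were below 0 for *Jun* (−0.29) and *Atf3* (−0.38) and above 0 for the rest of the list. *Jun* was lower in LRCs in each experiment (−0.11, −0.31 and −0.45). The genes of this list were named here after their values were seen. The part of these genes in the *Hes1* and *Hey1* values was not tested.

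**Figure D3:**
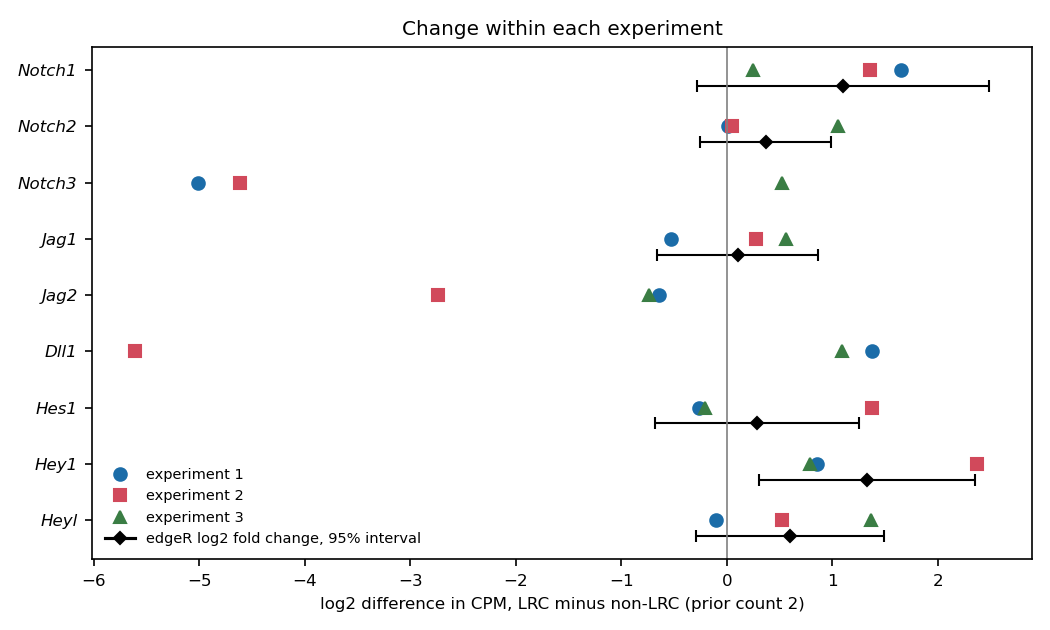
Log2 difference in CPM (LRC minus non-LRC, prior count 2) in each experiment for the 9 genes tested. Black diamonds and bars give the edgeR log2 fold change and its 95% interval for the genes with at least 10 counts in every library, and only for *Hey1* does the interval lie above 0.

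Ratios of a pair of genes within 1 library do not depend on the scaling between libraries. The ratio of *Hey1* to *Hes1*, per kb, was 1.12, 0.401 and 0.447 in LRCs and 0.512, 0.1998 and 0.224 in non-LRCs. It was the higher in LRCs in each experiment, while the groups overlapped. The ratio of *Hey1* to *Heyl* was 1.79, 3.56 and 1.13 in LRCs and 0.920, 0.983 and 1.69 in non-LRCs, the higher in LRCs in experiments 1 and 2 alone. The ratio of *Notch1* to *Notch2* was 0.1003, 0.171 and 0.0571 in LRCs and 0.0318, 0.0678 and 0.1001 in non-LRCs, again with experiment 3 the other way. With 3 pairs, these ratios are given as a description with no test.

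Counted together, 6 of the 9 Notch genes tested had a fitted log2 fold change above 0 and 3 below, with a median of 0.29. Of all 13728 genes tested, 6038 were above 0 and 7690 below, with a median of −0.097. *Notch1*, *Notch2* and *Hey1* were higher in LRCs in all 3 experiments, as were 20.4% of all genes, and *Jag2* was lower in all 3, as were 26.1%. In *Notch1* and *Hey1* all LRC libraries lay above all non-LRC libraries, which 8.41% of all genes showed, and none of the 9 showed the reverse, against 10.3% of all genes. All 3 targets were above 0, with *Hey1* alone higher in each experiment. In the deposited rlog values, which pull low counts towards the mean, *Hey1* had the largest difference of the 10 genes, at 0.76, followed by *Notch1* at 0.37, *Heyl* at 0.35, *Notch2* at 0.29 and *Hes1* at 0.22, and the other 5 genes lay between −0.098 and 0.054.

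**Figure D4:**
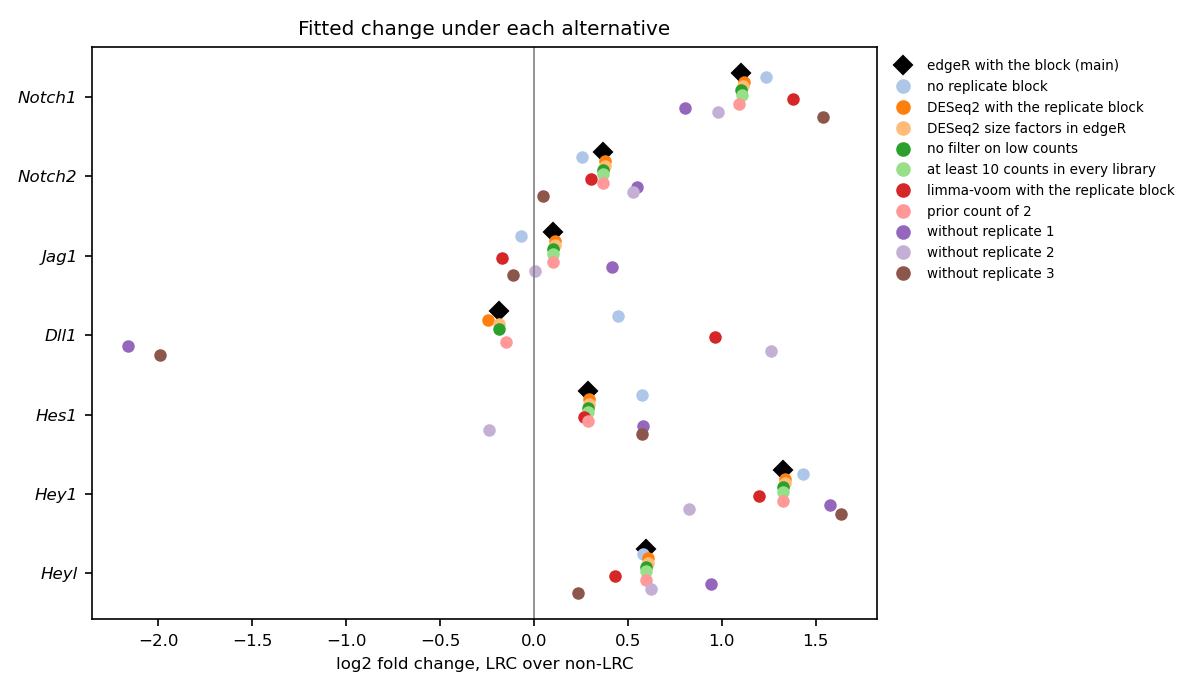
Fitted log2 fold change (LRC over non-LRC) of 7 Notch genes in the paired edgeR fit (black diamonds) and under each alternative (coloured points). *Hey1* stays between 0.82 and 1.64 and *Notch1* between 0.81 and 1.54, while *Jag1*, *Dll1* and *Hes1* have points on both sides of 0.

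The rest of the pathway was followed through 58 other genes on 8 lists, of which 50 passed the filter. None was a DEG in the edgeR fit. Fitted values were above 0 for 30 and below 0 for 20, with a median of 0.13. Over all 13728 genes tested they were above 0 for 6038 and below 0 for 7690, with a median of −0.097. At an unadjusted p below 0.05 in the edgeR fit, 4 genes were higher and 4 lower in LRCs, together 16% of the 50 against 18.4% of all genes. In all 3 experiments 13 (26%) were higher and 8 (16%) lower, against 20.4% and 26.1% of all genes. All LRC libraries lay above all non-LRC libraries for 7 (14%) and below them for 3 (6%), against 8.41% and 10.3%. *Dll3*, *Dll4*, *Nrarp* and *Hes7* had too few counts to be tested, and *Mfng*, *Hes2*, *Hes3* and *Hes5* were at 0 in every library.

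Among the modifiers of the receptor, *Lfng*, the Fringe glycosyltransferase that shifts receptors towards Delta ligands, was at 14.8, 10.9 and 7.17 CPM in LRCs and 25.7, 20.4 and 14.99 CPM in non-LRCs. Every LRC library was below every non-LRC library. Its log2 differences of −0.79, −0.90 and −1.06 were close to each other, and the fitted log2 fold change was −0.92 with a standard error of 0.24. The adjusted p of *Lfng* was 0.1251 by edgeR, 0.0150 by DESeq2 and 0.0452 by limma-voom. In all of these fits the difference was below 2-fold, so it was not a DEG. *Poglut1*, which adds O-glucose to the receptors, was the most abundant of its list and had a fitted log2 fold change of −0.56 (unadjusted p = 0.0269 in the edgeR fit).

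Of the 10 genes of receptor cleavage, the gamma-secretase subunits *Aph1a* and *Psenen* had fitted log2 fold changes of −1.01 and −0.57 (unadjusted p of 0.0365 and 0.0374 in the edgeR fit). The catalytic subunits were not among the genes below that threshold, and the convertase *Furin*, the most abundant of the list, was at 0.014. *Aph1a* was level in experiment 3 (log2 difference −0.0073) and lower in LRCs in experiments 1 and 2 (−1.44 and −1.55).

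Among antagonists and regulators of receptor turnover, *Dtx3*, of the Deltex family of ubiquitin ligases, was at 82.6, 118 and 82.2 CPM in LRCs and 60.9, 61.7 and 41.0 CPM in non-LRCs. The groups did not overlap, and its fitted log2 fold change was 0.79 with a standard error of 0.18. The adjusted p of *Dtx3* was 0.0934 by edgeR, the lowest of the 50 genes, 0.00264 by DESeq2 and 0.0223 by limma-voom. In all of these fits the difference was below 2-fold, so it was not a DEG. *Numb*, a membrane-bound inhibitor of Notch, stood at 0.81 (unadjusted p = 0.0339) and the abundant ligase *Nedd4* at 0.059. Of the nuclear genes, the acetyltransferase *Ep300* was at 0.72 and the corepressor *Tle2* at 0.58 (unadjusted p of 0.0217 and 0.0417 in the edgeR fit), and the abundant *Snw1* and *Ncor1* were at −0.041 and 0.056.

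*Dlk1*, a non-canonical ligand and known inhibitor of Notch, was chosen after its values were seen. It was counted 476, 16 and 207 times in LRCs against 40, 25 and 12 times in non-LRCs, or 4.08, 0.765 and 4.82 CPM against 0.387, 0.655 and 0.241 CPM. The LRC libraries were all above the non-LRC libraries, in experiment 2 by little. Its fitted log2 fold change was 2.76 with a standard error of 1.17 and an adjusted p of 0.284 by edgeR, and without experiment 2 it was 3.81 with an adjusted p of 0.0159 by edgeR. Of the genes of highest level on the remaining lists, *Dlk2*, *Mib2* and *Hes6* had fitted values of −0.15, −0.52 and −0.51, none with an unadjusted p below 0.05 in the edgeR fit.

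**Figure D5:**
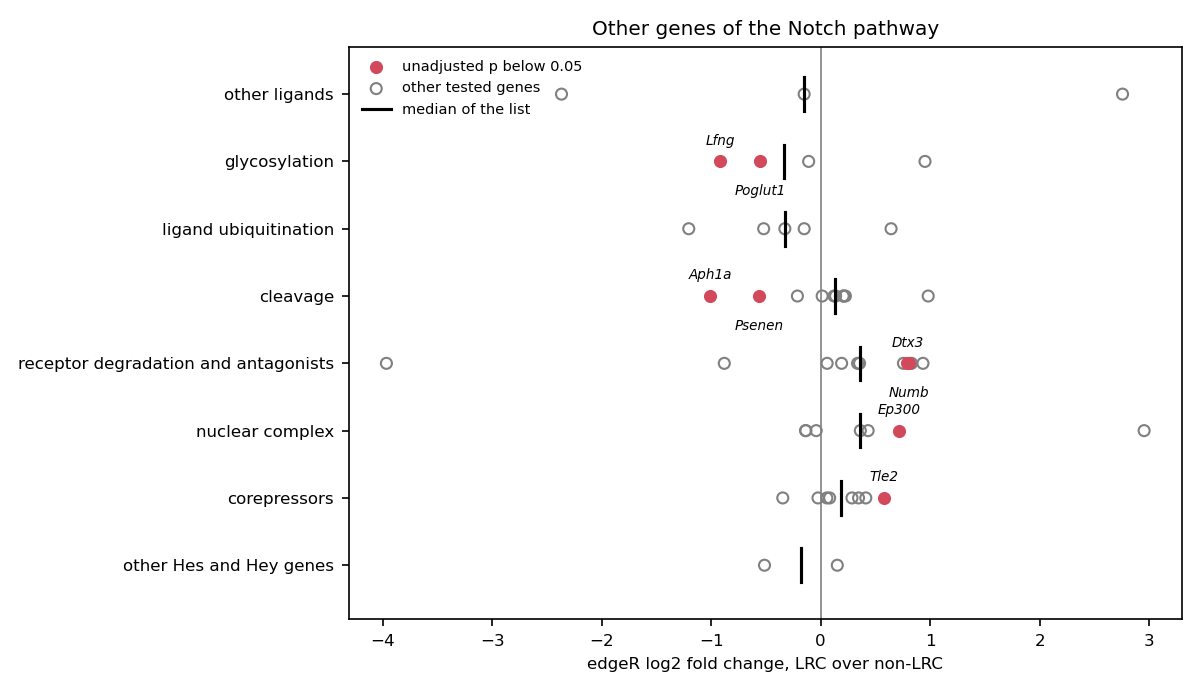
EdgeR log2 fold change (LRC over non-LRC) of the 50 tested pathway genes on 8 lists, with filled points for an unadjusted p below 0.05 and black bars for list medians. The filled points are 4 above 0 (*Dtx3*, *Numb*, *Ep300*, *Tle2*) and 4 below 0 (*Lfng*, *Poglut1*, *Aph1a*, *Psenen*).

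Coordinates are those of GENCODE vM21 on GRCm38. *Jag1*, *Hes1*, *Hey1* and *Heyl* overlapped no other annotated gene. *Notch1* overlapped 3, *Notch2* 2, and *Notch3*, *Notch4*, *Jag2* and *Dll1* 1 each. The library kit does not mark strand, so reads of these genes and of genes on the other strand (for *Notch1*, *Notch3*, *Notch4* and *Dll1*) cannot be told apart.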

How the data were processed

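RNA was measured in 6 libraries from 3 experiments, paired by the experiment number in the labels. The authors amplified cDNA (SMART-Seq v4), prepared Nextera XT libraries, aligned reads to mm10 (GRCm38) with TopHat2 2.0.13 and Bowtie2 2.2.1 and counted non-ambiguous reads with HTSeq. The annotation and strand setting are not given in the sources used here. The authors deposited raw counts of reads per gene, which were the input of all tests. They also deposited a normalized signal, in which DESeq2 size factors divide the counts, used only to check that relation, and log2 values from DESeq2's rlog, used only where named.

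The analysis ran in edgeR 4.0.16 (R 4.3.3), with filterByExpr (minimum count 10, minimum total 15), which left 13728 genes, TMM normalization, the experiment as a block and the quasi-likelihood F test, with Benjamini-Hochberg adjustment over all genes tested. The block follows the authors' paired model. As a check, deviations from the group means correlated across genes, with r between the paired libraries of 0.197, 0.288 and 0.336. The highest r of the same LRC libraries with a non-LRC library of another experiment was 0.128, −0.107 and −0.0177. Centring on means of 3 libraries pulls these down when the paired r is positive, so the check does not settle the pairing. Standard errors were derived from the F statistic. CPM was TMM-normalized and log2 differences used a prior count of 2. Chi-square values per gene showed no library to be a copy of another. Alternatives used DESeq2 1.42.0, limma 3.58.1, other filters, size factors and prior counts, and each experiment left out.

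Named genes were the 10 Notch genes and, of the 8 pathway lists, genes with an unadjusted p below 0.05 and the most abundant gene of each list. The genes and lists were chosen with earlier results of these data known. Promoters were not analysed here.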

Additional observations from a re-analysis of the deposited data

How the results depend on the processing

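The number of DEGs over all genes depended on the fit: 166 with the paired edgeR fit, 1 without the experiment block, 799 with DESeq2, 621 with limma-voom, 434 with at least 10 counts in every library, and 35 to 555 with 1 experiment left out, the lowest without experiment 1 and the highest without experiment 2. Of the 10 Notch genes, 0 were DEGs except with DESeq2 and limma-voom, which called 1 each (*Hey1*). Of the other pathway genes, 0 were DEGs except for 1 with DESeq2 (*Dlk1*), 2 with limma-voom (*Dlk1* and *Aph1a*, the latter at −1.15) and 0 to 1 with 1 experiment left out (*Dlk1* without experiment 2). Of 237 recomputed log2 fold changes of named genes, 220 kept their sign and 17 reversed. Without the block these were *Jag1* (−0.070), *Dll1* (0.45) and *Dlk2* (0.15), and with limma-voom *Jag1* (−0.17), *Dll1* (0.97) and *Mib2* (0.031). Leaving out 1 experiment gave ranges of −0.11 to 0.42 for *Jag1*, −2.16 to 1.26 for *Dll1*, −0.24 to 0.58 for *Hes1*, −1.02 to 0.54 for *Dlk2*, −1.05 to 0.25 for *Mib2*, −0.019 to 0.052 for *Furin*, −0.038 to 0.14 for *Nedd4*, −0.12 to 0.051 for *Snw1*, −0.21 to 0.30 for *Ncor1* and −1.08 to 0.058 for *Hes6*. The causes were not tested. Without the block, 0 of the 10 marker genes that the paired edgeR fit called were called, and no Notch or pathway gene had a call to lose. *Notch3*, *Notch4*, *Jag2* and *Dll1* were each at 0 in the smallest library, where a 0 allowed up to 0.143 CPM. The non-LRC library of experiment 2 had *Notch3*, *Jag2* and *Dll1* above that bound (0.759, 0.183 and 1.54 CPM) and *Notch4* below it (0.0262 CPM). The part of depth in these zeros was not tested. A value under every alternative was available for 6 of the 10 Notch genes. Each group had 3 libraries of pooled mice. In the paired edgeR fit, p-values measure only the spread between libraries left after the experiment block, with information shared across genes. The spread between single mice was not measured.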
